A study of Cavia porcellus with 10 samples.

Results

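Elastic fibre genes code for the proteins that give a soft tissue its recoil. A rule on gene names listed 10 of them: elastin (ELN), the fibrillins FBN1 and FBN2, the fibulins FBLN1, FBLN2, FBLN5, EFEMP1 and EFEMP2, the elastin interface protein EMILIN1, and the microfibril-associated glycoprotein MFAP4. Of these, 9 had a row among the 25028 Ensembl genes of the table, and FBN1 was not analysed here. They were measured by RNA sequencing of cervix, taken mainly from its vaginal part so as to avoid uterine muscle, from Hartley guinea pigs, for which the labels give no genotype or treatment beside the reproductive stage. There were 3 non-pregnant females in estrus (NP), 3 females at mid-pregnancy (MT, gestation 43.6 ± 0.5 days) and 4 females in late pregnancy before labor (LT, gestation 65.2 ± 1.2 days). Gestation age was estimated after death.

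In background, an elastic fibre has a core of crosslinked elastin inside a sheath of fibrillin microfibrils. Cells secrete tropoelastin, fibulins and emilins bring it to the microfibrils, and lysyl oxidases crosslink it into an insoluble polymer. In the cervix, elastic fibres lie among the collagen bundles of the stroma and around vessels, and fibroblasts and smooth muscle cells are their main source.

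The level of a gene is given as TPM, a transcript abundance that takes the length of the gene into account and on which the genes of each animal sum to the same total. The values rest on 18730665 to 27881572 counted reads per animal. Changes between stages are log2 fold changes of TPM + 1, tested with limma in 1 fit over the 10 animals for 12645 genes, and a gene is called when its adjusted P is under 0.05. The median over all tested genes was itself -0.14 for NP to MT, -0.16 for MT to LT and -0.28 for NP to LT, and the changes below stand against that shift. The tissue label was checked with markers of 6 cell types, and none of the 35 marker genes with a row was listed at 0 in any animal. The 8 smooth muscle markers summed to between 8168 and 30766 TPM in NP, to between 12621 and 18994 TPM in MT and to between 19044 and 39435 TPM in LT. The 6 fibroblast markers with a row summed to between 5757 and 11839 TPM over the 10 animals. NP replicate 1 stood apart, since it held 30766 TPM of smooth muscle markers where the other NP animals held 10523 and 8168. In tissue pieces, a smaller share of the cells that make a message and less message in each cell cannot be told apart.

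Of the 8 elastic fibre genes that reached 3 TPM in a stage mean, EFEMP1 changed most: it rose 3.38-fold from NP to MT and stayed high in LT. FBN2, at a far lower level, was lowest in LT, and the stage means of the other 7 genes differed by between 0.660-fold and 1.56-fold. By level per length, MFAP4 was the most abundant in each stage and FBN2 the least. From the top, the NP means were MFAP4, EFEMP2, FBLN1, EMILIN1, FBLN2, FBLN5, ELN, EFEMP1 and FBN2, while in MT and LT EFEMP1 stood in the second place, behind MFAP4. Within a stage many neighbours in this order were closer than their spread. In NP, for example, FBLN5 at 71.7 ± 15.4 TPM, ELN at 71.1 ± 20.0 TPM and EFEMP1 at 62.4 ± 13.3 TPM (SD, n = 3) could not be ranked. The gaps from MFAP4 to the second gene and from ELN to FBN2 were wider than the spread in every stage, with no overlap between animals. The summed level of the 9 genes ranged from 1020 to 1181 TPM in NP, from 1067 to 1458 TPM in MT and from 1023 to 1291 TPM in LT.

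**Figure D1:**
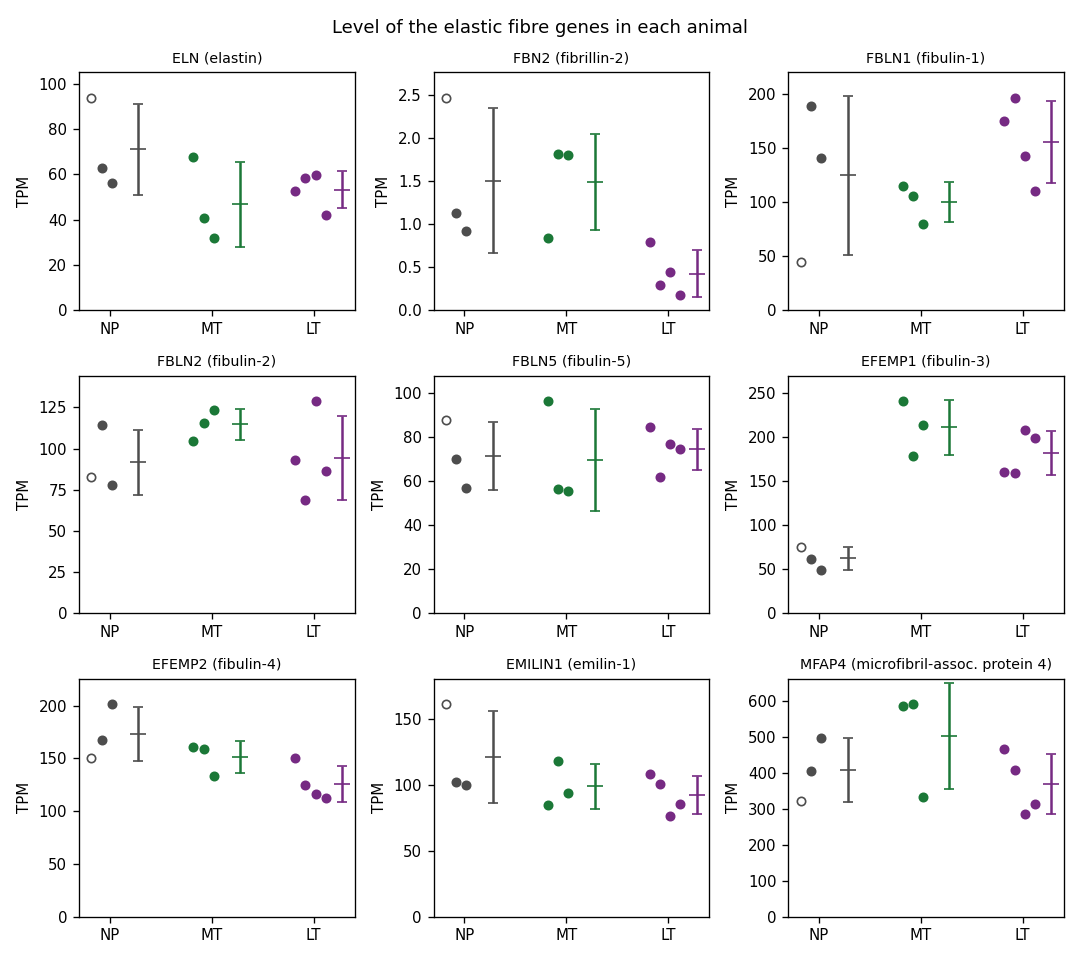
Level in TPM (vertical axes, each from 0) of the 9 elastic fibre genes in the 3 stages; each point is 1 animal in the order of its replicate number, the open point is NP replicate 1, and the bar is the mean with SD. EFEMP1 lies at 49.3 to 75.8 TPM in NP and at 160 to 241 TPM in the pregnant animals, FBN2 is lowest in LT, and the points of the other genes overlap between most stages.

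Elastin itself forms the core of the fibre. ELN (ENSCPOG00000024053) was measured at 93.9, 63.0 and 56.3 TPM in NP replicates 1 to 3, at 67.9, 40.9 and 31.8 TPM in MT, and at 52.9, 58.3, 59.8 and 41.9 TPM in LT. NP replicate 1 was the highest and MT replicates 2 and 3 were the lowest, but MT replicate 1 lay within the NP range, and all 3 stages overlapped. The mean was 71.1 ± 20.0 TPM in NP and 46.9 ± 18.8 TPM in MT (SD, n = 3 each). On the log2 scale elastin was thus at -0.63 relative to NP (95% interval -1.23 to -0.02, adjusted P = 0.134), which was not called. Without MT replicate 1 the same change was -0.92 with an adjusted P of 0.0293, so that the call for elastin turned on 1 animal. MT replicate 1 also stood apart in the summed fibroblast markers, at 10765 TPM against 6252 and 5757 TPM in MT replicates 2 and 3. Most of this was the collagen gene COL1A1 at 6840, 3673 and 3495 TPM. NP replicate 1 stood apart likewise, at 11839 TPM against 7315 and 6834 TPM, with COL1A1 at 7443, 4531 and 4231 TPM. Not all markers followed: PDGFRA was lowest of the MT animals in MT replicate 1 (60.2 TPM), and DPT lowest in NP replicate 1 (63.3 TPM). Without NP replicate 1 the change of ELN was -0.41 (adjusted P = 0.27). The part of these markers in the levels of ELN was not tested. The mean in LT was 53.2 ± 8.09 TPM (SD, n = 4), and neither the change from MT (0.24, interval -0.33 to 0.81, adjusted P = 0.507) nor the one from NP (-0.39, interval -0.96 to 0.18, adjusted P = 0.222) passed the test.

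Fibrillins are the large proteins of the microfibril sheath, and fibrillin-2 is known as the form made mainly during development. FBN2 (ENSCPOG00000000726) was measured at 2.47, 1.13 and 0.917 TPM in NP, at 0.840, 1.82 and 1.81 TPM in MT, and at 0.795, 0.289, 0.442 and 0.177 TPM in LT. Every LT animal lay below every NP and MT animal, although the gap between LT replicate 1 and MT replicate 1 was small. The reads behind these values were 148 to 484 per animal in NP, 117 to 346 in MT and 36 to 162 in LT. The mean was 1.505 ± 0.841 TPM in NP (SD, n = 3), 1.49 ± 0.562 TPM in MT (SD, n = 3) and 0.426 ± 0.269 TPM in LT (SD, n = 4), which is below the minimum of 3 TPM set for the test in all 3 stages. With no minimum, the log2 fold change was -0.79 from MT to LT (adjusted P = 0.0497) and -0.78 from NP to LT (adjusted P = 0.0301), a scale that understates changes at such low levels. On the read counts, edgeR with no minimum, which was added after the values were seen, gave -1.61 (adjusted P = 0.0567) and -1.53 (adjusted P = 0.0433). The exact permutation test on the square root of TPM gave P = 0.0571 for each of these contrasts. The fall of FBN2 from MT to LT therefore passed in limma and did not pass in edgeR. Over the same contrast 5 of the 6 endothelial markers with a row were called lower by limma (background 22.7%), with sums of 83.3 to 117 TPM in MT and 45.7 to 66.6 TPM in LT. The 6 fibroblast markers with a row did not move together: 4 had a positive log2 change and 2 a negative one, PDGFRA alone was called lower (adjusted P = 0.00187) and LUM alone was called higher (adjusted P = 0.00761). PDGFRA was at 60.2, 89.6 and 73.1 TPM in MT and at 35.0, 20.5, 23.6 and 18.3 TPM in LT, and LUM was at 134, 134 and 111 TPM in MT and at 213, 179, 289 and 290.2 TPM in LT. The part of these markers in the falls of FBN2, and of EMILIN3, ATP7A, TGFB2 and TIMP3 described below, was not tested.

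The fibulins link elastin to the microfibrils and to cells, and 5 of the listed genes code for fibulins. EFEMP1 codes for fibulin-3, a short fibulin found in elastic tissues whose loss in mice leads to hernias. EFEMP1 (ENSCPOG00000002568) was measured at 75.8, 62.1 and 49.3 TPM in NP, at 241, 179 and 214 TPM in MT, and at 161, 160, 208 and 199 TPM in LT. All 7 pregnant animals were above all 3 non-pregnant animals, with a wide gap between them, while MT and LT overlapped.

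From NP to MT the mean of EFEMP1 went from 62.4 ± 13.3 to 211 ± 31.2 TPM (SD, n = 3 each). On the log2 scale the rise was 1.75 (standard error 0.18, interval 1.36 to 2.15, adjusted P = 0.000461). The LT mean was 182 ± 25.2 TPM (SD, n = 4), which was 1.54 above NP on the log2 scale (interval 1.17 to 1.91, adjusted P = 0.000156). From MT to LT the change of -0.21 (interval -0.58 to 0.15, adjusted P = 0.342) did not pass. Exact permutation tests gave P = 0.1 for NP to MT and P = 0.0286 for NP to LT, which are the smallest values that 3 animals against 3 and 3 against 4 can give. The rise of EFEMP1 over NP was called in both contrasts under all 21 alternative settings, with log2 fold changes between 1.60 and 1.90 from NP to MT when single animals were left out.

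Some markers of columnar epithelium were also higher in pregnancy. The 5 of 8 such markers with a row summed to between 750 and 830 TPM in NP, to between 1230 and 1917 TPM in MT and to between 1119 and 1419 TPM in LT. EPCAM and MUC5B were called higher in MT, CDH1, MUC1 and CLDN7 were not, and none of the 5 was at 0 in any animal. Most of the difference in the sum was the mucin MUC5B, at 9.86, 102 and 115 TPM in NP and at 861, 391 and 937 TPM in MT. Of the 6 fibroblast markers with a row, LUM alone was called by limma from NP to MT, and it was lower in MT. Among the 8 smooth muscle markers, none was called from NP to MT by limma or by edgeR. None had an unadjusted P under 0.05 in either test, where 4417 and 4162 of the 12645 genes did. The part of these cell types in the rise of EFEMP1 was not tested.

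EFEMP2 codes for fibulin-4, which is known to bind lysyl oxidase and to be needed for elastin crosslinking in mice. EFEMP2 (ENSCPOG00000008083) was measured at 151, 168 and 201 TPM in NP, at 161, 158 and 133 TPM in MT, and at 150, 124, 116 and 112 TPM in LT. The LT animals all lay below the NP animals, with LT replicate 1 just under NP replicate 1, and MT overlapped with both. The mean went from 173 ± 25.8 TPM in NP (SD, n = 3) through 151 ± 15.2 TPM in MT (SD, n = 3) to 126 ± 16.98 TPM in LT (SD, n = 4). From NP to LT the log2 fold change was -0.46 (interval -0.75 to -0.16, adjusted P = 0.0152), of which -0.18 remained after subtraction of the shift of the median gene. The call was lost once the libraries were scaled to each other by their median ratio (-0.13, adjusted P = 0.332) and in edgeR on the counts (-0.17, adjusted P = 0.256), and without NP replicate 3 (-0.34, adjusted P = 0.065). Endothelial markers fell over the same contrast, from between 106 and 155 TPM summed over 6 of 8 genes in NP to between 45.7 and 66.6 TPM in LT. All 6 were called lower by limma (background 41.9%) and none was at 0, and their part in the result was not tested.

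FBLN5 codes for fibulin-5, which binds elastin and cell surface integrins and is required for normal elastic fibres in mice. FBLN5 (ENSCPOG00000006061) was measured at 87.8, 70.2 and 57.1 TPM in NP, at 96.5, 56.7 and 55.6 TPM in MT, and at 84.6, 62.0, 77.0 and 74.9 TPM in LT. Replicate 1 was the highest animal in each stage, and the ranges of the stages lay almost on top of each other. Relative to NP the log2 change was -0.07 in MT (interval -0.57 to 0.43, adjusted P = 0.852) and from MT to LT it was 0.14 (interval -0.33 to 0.61, adjusted P = 0.644), and the sign of the first turned under other scalings.

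FBLN1 and FBLN2 code for the larger fibulin-1 and fibulin-2, which are found in elastic fibres and in basement membranes. FBLN1 (ENSCPOG00000008797) was measured at 44.6, 189 and 141 TPM in NP, at 115, 106 and 79.5 TPM in MT, and at 175, 196, 143 and 110 TPM in LT. NP replicate 1 was the lowest of the 10 animals, at 0.270 times the mean of NP replicates 2 and 3, whereas LT replicates 1 and 2 and NP replicate 2 were the highest. The change from MT to LT was 0.62 on the log2 scale (interval -0.32 to 1.55, adjusted P = 0.284) and was not called. Without NP replicate 1 the change stayed at 0.62 and its adjusted P was 0.0438. From NP the change was -0.10 to MT (interval -1.10 to 0.90, adjusted P = 0.892) and 0.52 to LT (interval -0.42 to 1.45, adjusted P = 0.32), and both turned their sign when single NP animals were left out. FBLN2 (ENSCPOG00000006125) was measured at 83.04, 114 and 77.8 TPM in NP, at 105, 115 and 124 TPM in MT, and at 93.0, 68.7, 129 and 86.6 TPM in LT. Its LT animals spanned the range of both other stages, and its log2 fold changes of 0.34 (interval -0.14 to 0.81) from NP to MT and -0.31 (interval -0.76 to 0.13) from MT to LT did not pass, with adjusted P = 0.286 and 0.254.

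Seen together, the messages of these 5 fibulins differed in make-up between NP and pregnancy; fibulin-7 (FBLN7) was in the list of relatives and was not part of the sum. EFEMP1 supplied 12.3 ± 4.27% of the summed TPM of the 5 fibulins in NP, 32.6 ± 3.21% in MT and 28.9 ± 4.53% in LT (SD, n = 3, 3 and 4). EFEMP2 supplied 33.4 ± 5.25%, 23.4 ± 2.06% and 19.9 ± 2.22% in the same order. The shares of FBLN2 were 17.5, 17.9 and 14.8%, those of FBLN5 were 14.1, 10.6 and 11.8%, and those of FBLN1 were 22.7, 15.4 and 24.6%, with a range of 10.1 to 31.3% in NP alone. The 5 together came to 442 to 603 TPM in the NP animals, 606 to 719 TPM in the MT animals and 583 to 672 TPM in the LT animals.

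A ratio within a library does not move with the abundance of all other genes, and the ratio of EFEMP1 to EFEMP2 was therefore compared as well. It was 0.504, 0.370 and 0.245 in NP, 1.497, 1.13 and 1.60 in MT, and 1.07, 1.28, 1.79 and 1.78 in LT. EFEMP2 exceeded EFEMP1 in all 3 NP animals and EFEMP1 exceeded EFEMP2 in all 7 pregnant animals. The log2 ratio rose by 1.96 from NP to MT and by 2.02 from NP to LT, and it differed by 0.05 between MT and LT. The exact permutation of the F statistic over the 3 stages gave P = 0.0138, and single contrasts gave exact permutation P = 0.1 from NP to MT, 0.8286 from MT to LT and 0.0286 from NP to LT.

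**Figure D2:**
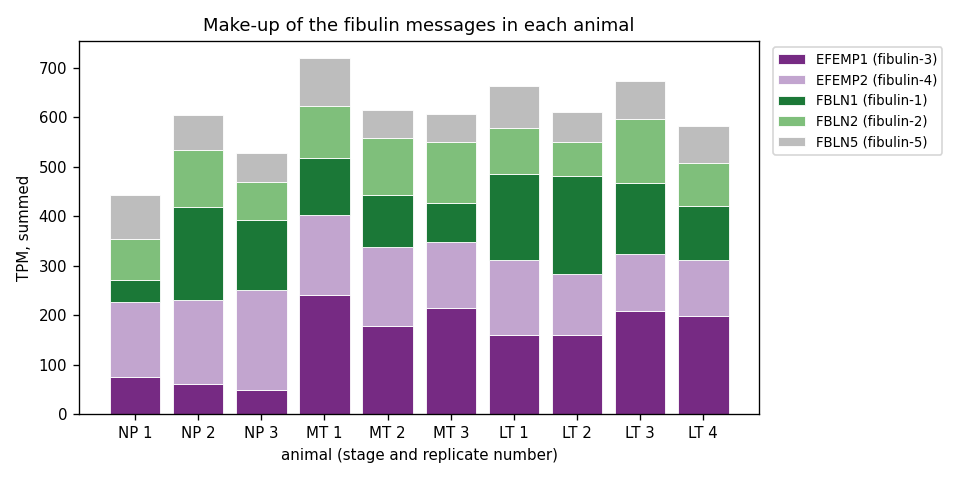
Summed level of the 5 fibulin genes in each animal (vertical axis, TPM from 0), with 1 stacked bar per animal and 1 shade per gene. The bottom segment, EFEMP1, is 49.3 to 75.8 TPM tall in the NP animals and 160 to 241 TPM in the MT and LT animals, and the FBLN1 segment of NP replicate 1 is 44.6 TPM.

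Of the genes for proteins of the fibre surface, neither was called in any contrast. EMILIN1, which sits between elastin and the microfibrils, is known to hold back the maturation of transforming growth factor beta. EMILIN1 (ENSCPOG00000008666) was measured at 161, 102 and 99.97 TPM in NP, at 84.8, 118 and 94.0 TPM in MT, and at 108, 100.3, 76.0 and 85.7 TPM in LT. NP replicate 1 stood 1.60-fold above the other NP animals, and the remaining animals fell between 76.0 and 118 TPM in all stages. Its log2 fold changes were -0.27 (interval -0.72 to 0.19, adjusted P = 0.381) from NP to MT and -0.10 (interval -0.52 to 0.33, adjusted P = 0.735) from MT to LT, the sign of the latter turned under other scalings, and neither passed the test.

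MFAP4 binds elastin and fibrillin and is thought to help organise the fibre. MFAP4 (ENSCPOG00000026738) was measured at 320, 404 and 497 TPM in NP, at 586, 590 and 333 TPM in MT, and at 466, 407, 286 and 313 TPM in LT. MT replicates 1 and 2 were the highest animals and MT replicate 3 fell among the NP and LT animals, so that no pair of stages was free of overlap. On the log2 scale the changes were 0.28 (interval -0.31 to 0.87, adjusted P = 0.477) from NP to MT and -0.43 (interval -0.98 to 0.12, adjusted P = 0.207) from MT to LT.

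Of the 8 elastic fibre genes tested, limma called 1 from NP to MT, EFEMP1, which was higher, where 18.5% of all tested genes were called and 6.27% were called higher. From MT to LT it called 0 of 8, against 29.4% of all genes. At an unadjusted P under 0.05, 0 of 8 passed in limma or in edgeR, where 5473 and 5463 of the 12645 genes did. From NP to LT it called 2 of 8, EFEMP1 higher and EFEMP2 lower, against 53.1% of all genes. In edgeR on the counts these numbers were 1, 0 and 1, EFEMP1 in each case where a gene was called, against 18%, 29% and 49.4% of all genes. Animals of the 2 stages did not overlap for 1, 0 and 2 of the 8 genes in these contrasts, against 34.9%, 46.3% and 52.4% of all genes. The median log2 fold change of the 8 was -0.09, -0.16 and -0.06, beside -0.14, -0.16 and -0.28 over all genes. The exact permutation of the F statistic over the 3 stages gave P = 0.00333 for EFEMP1, 0.0376 for EFEMP2 and 0.0471 for FBN2, and 0.22 to 0.879 for the other 6 genes. After median-ratio scaling, or without any single one of NP replicate 2, MT replicate 2 and LT replicates 2, 3 and 4, EFEMP1 alone had P under 0.05 in this test. The share of all genes that pass it was not computed. The 3 contrasts share their animals, so these counts are not independent of each other.

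**Figure D3:**
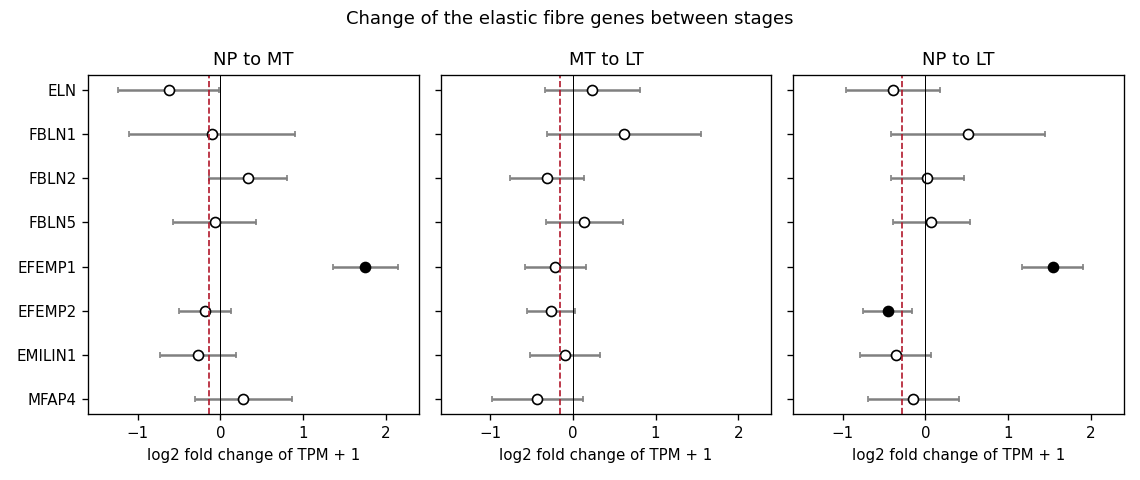
Log2 fold change of TPM + 1 (horizontal axes) with its 95% interval for the 8 elastic fibre genes tested, in the 3 contrasts; filled points have a limma adjusted P under 0.05, and the dashed line is the median of all 12645 genes. EFEMP1 stands at 1.75 and 1.54 in the contrasts with NP, EFEMP2 is filled in NP to LT only at -0.46, and no point is filled from MT to LT.

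Genes of the same pathway outside this group were taken in 4 lists of 61 genes, of which 45 had a row and 42 were tested. From NP to MT, 9 of the 42 were called, 0 higher and 9 lower (background 6.27% and 12.2%). From MT to LT, 13 were called, 6 higher and 7 lower (background 6.73% and 22.7%). From NP to LT, 21 were called, 3 higher and 18 lower (background 11.2% and 41.9%). In edgeR, 0 were higher and 8 lower from NP to MT (background 10.1% and 7.98%), 8 higher and 5 lower from MT to LT (13.4% and 15.6%), and 5 higher and 13 lower from NP to LT (23.6% and 25.8%). The median log2 fold change of the 42 genes was -0.30, -0.01 and -0.46 in the 3 contrasts.

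Among 14 tested relatives of the microfibril and fibulin proteins, 4 were called from NP to MT, all lower (background 12.2%), and 1 higher and 3 lower from MT to LT (background 6.73% and 22.7%). MFAP2, a small glycoprotein of the microfibril, was the most abundant of those named here, at 170, 193 and 262 TPM in NP, 145, 156 and 101 TPM in MT, and 126, 111, 121 and 85.6 TPM in LT. All pregnant animals lay below the NP animals for MFAP2, and only the contrast of NP with LT was called (log2 change -0.89, adjusted P = 0.00435, and 0.0957 in edgeR with the replicate block), while NP to MT (-0.63, adjusted P = 0.0659) and MT to LT (-0.26, adjusted P = 0.333) were not. HMCN1, which codes for hemicentin-1, a very large relative of the fibulins, averaged 6.31 ± 2.50 TPM in NP and, after a fall, 1.91 ± 0.211 TPM in MT (SD, n = 3 each). Its log2 change was -1.27 (adjusted P = 0.0149), and the call was lost without NP replicate 2 (adjusted P = 0.0556) or MT replicate 3 (adjusted P = 0.0587). HMCN1 and ADAMTS17, both counted above as called lower, reached the minimum of 3 TPM in NP alone, which favours a fall from NP. ADAMTS17 averaged 3.55 TPM in NP and 0.926 TPM in MT, and both were also called lower with no minimum. From NP to MT the markers CDH5, LUM, IVL and TGM1 were called lower and EPCAM and MUC5B higher. Their part in the fall of HMCN1 was not tested.

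FBLN7, singled out after its values were seen, was measured at 8.79, 31.5 and 38.4 TPM in NP, at 10.5, 12.7 and 10.02 TPM in MT, and at 5.08, 8.48, 5.74 and 4.97 TPM in LT. All LT animals lay below all others, NP replicate 1 by the least, and the other NP animals stood well above the rest. It fell by 1.74 on the log2 scale from NP to LT (interval -2.65 to -0.83, adjusted P = 0.00561), whereas -0.95 for NP to MT (adjusted P = 0.151) and -0.79 for MT to LT (adjusted P = 0.165) were not called. Without NP replicate 1 these steps were called too, at -1.58 (adjusted P = 0.00174) and -0.79 (adjusted P = 0.00788).

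The emilin relatives moved in both directions from MT to LT. EMILIN2 averaged 9.83 ± 2.31 TPM in MT (SD, n = 3) and 17.5 ± 3.48 TPM in LT (SD, n = 4), a rise of 0.78 on the log2 scale (adjusted P = 0.0121). EMILIN3 averaged 4.36 ± 2.16 TPM in MT (SD, n = 3) and 0.757 ± 0.503 TPM in LT (SD, n = 4), a change of -1.58 on the same scale (adjusted P = 0.0106). Its LT values rest on 18 to 73 reads per animal. As for FBN2, the scale understates changes at such levels, and the LT mean was 0.173 times that of MT. The animals of the 2 stages did not overlap for either gene. Beside the rise of EMILIN2, and those of LOXL1, LOXL2 and SLPI over the same contrast described below, LUM was called higher as given above, and of the 8 smooth muscle markers SMTN alone was called higher (log2 change 1.24, adjusted P = 0.0225), with mean sums of 15354 TPM in MT and 28918 TPM in LT. The part of these markers in the 4 rises was not tested. LTBP4 and MFAP5, which belong to the same machinery, were not analysed here.

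The enzymes that crosslink tropoelastin differed among themselves. LOX, the main lysyl oxidase, was measured at 31.1, 24.3 and 28.01 TPM in NP, at 26.0, 13.5 and 14.5 TPM in MT, and at 25.5, 14.2, 28.3 and 28.8 TPM in LT. As for ELN, MT replicates 2 and 3 were low and MT replicate 1 lay in the NP range, and here LT replicate 2 was low too. No contrast of LOX was called, with log2 changes of -0.65 for NP to MT (adjusted P = 0.141), 0.42 for MT to LT (adjusted P = 0.264) and -0.23 for NP to LT (adjusted P = 0.487). Without MT replicate 1, the MT animal with the highest summed fibroblast markers, mostly COL1A1, the first was -0.94 and called (adjusted P = 0.0459).

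LOXL1 is the lysyl oxidase most tied to elastic fibres, and mice without it develop pelvic organ prolapse after giving birth. LOXL1 was measured at 91.9, 72.1 and 75.3 TPM in NP, at 94.3, 88.4 and 72.1 TPM in MT, and at 150, 106, 131 and 98.0 TPM in LT. All 4 LT animals were above the 6 others, LT replicate 4 by the least. The rise was 0.50 from MT to LT (interval 0.14 to 0.85, adjusted P = 0.043) and 0.58 from NP to LT (interval 0.23 to 0.94, adjusted P = 0.0124). From MT to LT the rise was not called without NP replicates 2 or 3, any single MT animal or LT replicates 1, 2 or 3, nor with no minimum level (adjusted P = 0.0595). It stayed called without NP replicate 1 or LT replicate 4. Over all single animals left out, called or not, the adjusted P ran from 0.0298 to 0.145. From NP to LT it was not called without NP replicate 2 (adjusted P = 0.053).

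LOXL2, an enzyme that also acts on basement membrane collagen, was lowest in mid-pregnancy. It was measured at 108, 79.8 and 103 TPM in NP, at 59.9, 43.9 and 43.1 TPM in MT, and at 113, 91.6, 95.6 and 85.8 TPM in LT. No MT animal reached the level of an NP or LT animal. It fell by 0.97 from NP to MT (adjusted P = 0.0041) and rose by 0.97 from MT to LT (adjusted P = 0.00321). Of the 6 fibroblast markers with a row, LUM alone was likewise called lower from NP to MT (-0.67, adjusted P = 0.0433) and higher from MT to LT (0.91). In edgeR, 0 of them were called lower from NP to MT. PDGFRA moved the other way, with means of 55.1, 74.3 and 24.4 TPM in NP, MT and LT, and was called lower from MT to LT. COL1A1 averaged 5401, 4669 and 4805 TPM. The part of these markers in the changes of LOXL2 was not tested. ATP7A, the copper pump that loads lysyl oxidases, fell from 11.8 ± 0.457 TPM in MT (SD, n = 3) to 8.52 ± 0.593 TPM in LT (SD, n = 4), a log2 change of -0.43 (adjusted P = 0.0155). This call was lost without MT replicate 2 (adjusted P = 0.0534) or MT replicate 3 (adjusted P = 0.0531), with the replicate block (adjusted P = 0.0506) and in edgeR with no filter (adjusted P = 0.0573).

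Of 7 tested integrins and growth factors of the transforming growth factor beta family, TGFB2 alone was called between neighbouring stages, as lower in both steps (background 12.2% and 22.7%). TGFB2, a ligand that microfibrils store in latent form, was measured at 81.1, 82.6 and 92.5 TPM in NP, at 55.2, 46.0 and 47.8 TPM in MT, and at 34.2, 35.2, 39.4 and 38.3 TPM in LT. The stages did not overlap, and each was below the one before. It fell by 0.77 from NP to MT (adjusted P = 0.0013) and by 0.42 from MT to LT (adjusted P = 0.0102), and the second step was not called after median-ratio scaling (-0.24, adjusted P = 0.0975) in edgeR on the counts (-0.26, adjusted P = 0.0723; 0.1003 with the replicate block and 0.149 with no filter) or in DESeq2 (-0.26, adjusted P = 0.0542). Of the endothelial markers, CDH5 alone of 6 was called lower from NP to MT (-0.67, adjusted P = 0.0336) and 5 of 6 were called lower from MT to LT, at summed levels of 106 to 155, 83.3 to 117 and 45.7 to 66.6 TPM in NP, MT and LT, and their part in the fall of TGFB2 was not tested.

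Among 11 tested elastases and elastase inhibitors, 2 were called from NP to MT, both lower (background 12.2%), and 4 from MT to LT, 3 of them higher (background 6.73%) and 1 lower (22.7%). SLPI, a secreted inhibitor of neutrophil elastase made by epithelia, was measured at 458, 140 and 302 TPM in NP, at 31.1, 25.8 and 8.80 TPM in MT, and at 255, 176, 281 and 84.7 TPM in LT. The MT animals were all far below the others, with log2 changes of -3.73 for NP to MT (adjusted P = 0.00297) and 3.16 for MT to LT (adjusted P = 0.00419). Of 8 squamous epithelial markers 4 had a row, none was at 0, and they summed to 375, 120 and 48.8 TPM in the NP animals, 89.7, 34.2 and 48.4 TPM in the MT animals and 66.5 to 138 TPM in the LT animals, so that the stages overlapped. IVL and TGM1 were called lower from NP to MT, and none of the 4 was called from MT to LT. IVL averaged 53.3, 2.55 and 0.528 TPM in NP, MT and LT, and TP63 averaged 39.2, 37.01 and 40.8 TPM. DSG3 averaged 29.8, 15.3 and 58.8 TPM and TGM1 averaged 58.9, 2.56 and 8.22 TPM in the same order. The part of this epithelium in the changes of SLPI was not tested. TIMP3, a matrix-bound inhibitor of metalloproteinases, fell from 330 ± 62.9 TPM in MT (SD, n = 3) to 168 ± 19.1 TPM in LT (SD, n = 4), which was -0.96 on the log2 scale (adjusted P = 0.0033).

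**Figure D4:**
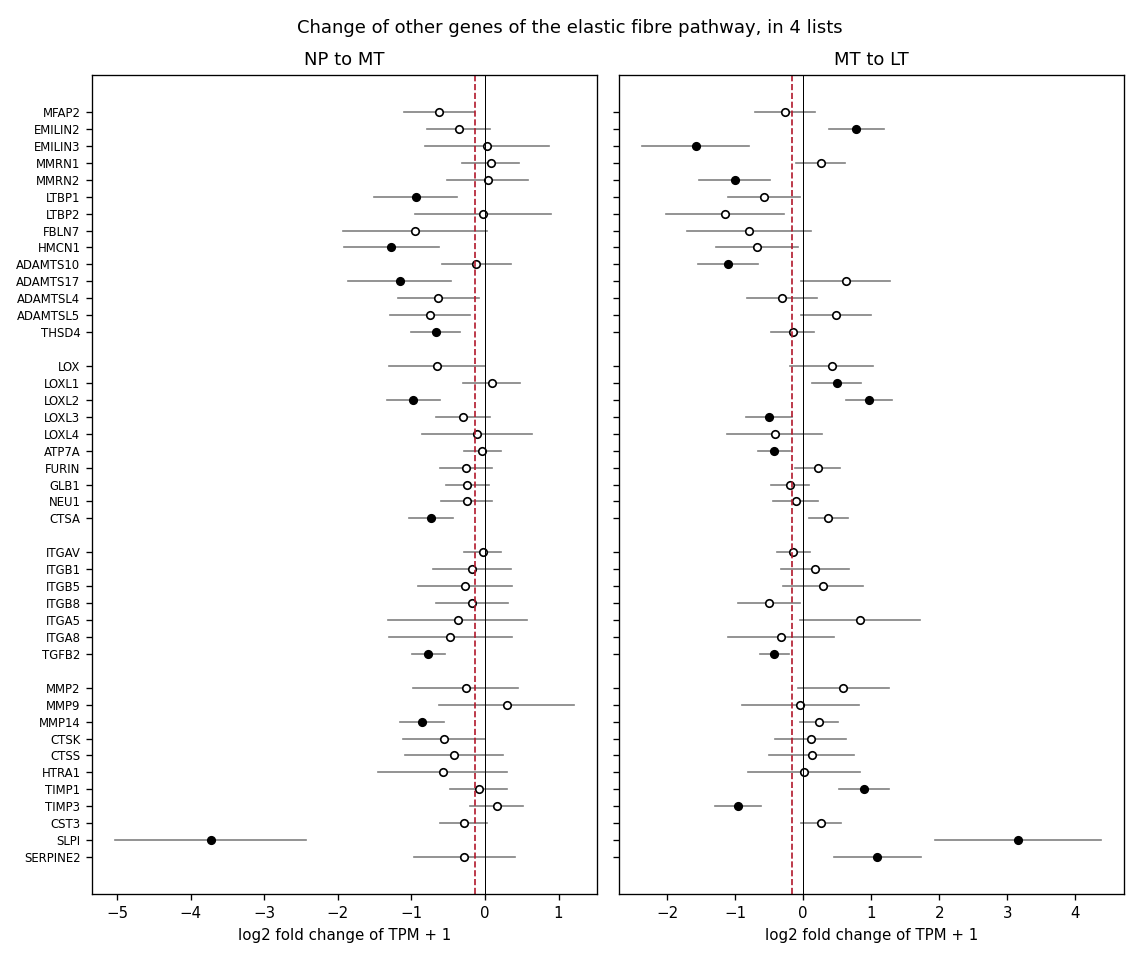
Log2 fold change of TPM + 1 (horizontal axes) with its 95% interval for 42 other genes of the pathway, in 4 blocks from top to bottom (microfibril and fibulin relatives, crosslinking and tropoelastin handling, integrins and growth factors, elastases and inhibitors); filled points have a limma adjusted P under 0.05, and the dashed line is the median of all tested genes. All 9 filled points lie left of 0 from NP to MT, with SLPI at -3.73, while 6 of the 13 filled points lie right of 0 from MT to LT.

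The genes whose pattern over the 10 animals was most like that of ELN were sought among 11403 tested genes with a name. They were SLC22A4 (Pearson r = 0.96), VDR (0.91), NADSYN1 (0.91), H2AFJ (0.90) and SDSL (0.89). After subtraction of the stage means these values were 0.94, 0.90, 0.90, 0.88 and 0.87, and without the animals farthest from the median of ELN (NP replicate 1 and MT replicate 3) they were 0.90, 0.75, 0.85, 0.75 and 0.82. Among the elastic fibre genes that reached 3 TPM, FBLN5 was the most like ELN, at 0.65 over the animals and 0.78 within stages, and EFEMP1 was at -0.46 and 0.49. FBN2 was not compared. These are descriptions over 10 animals that share stage and library, and the likeness to ELN was given no test.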

How the data were processed

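Total RNA of cervix, harvested mainly from the vaginal part, from 10 Hartley guinea pigs, each a separate animal, was selected for poly A, made into strand-specific libraries and sequenced on an Illumina instrument. Per the labels and the submitters' processing notes, the authors used CASAVA 1.8.2, TopHat2 and HTSeq 0.5.4p1 on the cavPor3 assembly. The authors deposited 1 table of 25028 Ensembl genes with the count of reads per gene and animal, and the TPM values that the authors computed from those counts. Both were used as deposited. All value columns were matched to animals by their labels.

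The elastic fibre genes, the pathway and marker lists and the tests were chosen with earlier results of these data known. Changes were tested two-sided with limma 3.58.1 (trend, R 4.3.3) on log2(TPM + 1) for the 12645 genes that averaged 3 TPM or more in 1 stage or more, adjusted by Benjamini-Hochberg over all of them. Exact permutation tests used square-root TPM. Alternatives were edgeR 4.0.16 (quasi-likelihood, TMM) and DESeq2 1.42.0 on the deposited counts, median-ratio scaling of TPM, another transform, pseudocount or filter, only 2 stages, a replicate block, and each animal left out. The edgeR fits with no filter or with a block were chosen later, with values already seen. The scripts were tested on simulated data.

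All 10 listed genes were to be named, and FBN1 was not analysed here, so that 2 planned ratios with FBN1 were not computed. From each pathway list, the gene with the largest rise and the gene with the largest fall from NP to MT and from MT to LT were named among those called with no overlap between animals, beside LOX, LOXL1, LTBP4, MFAP2 and MFAP5. FBLN7 and FBN3 were added after their values were seen. The counted reads ranged from 18730665 to 27881572 per animal. Lengths and sequences of the genes were not used here.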

Additional observations from a re-analysis of the deposited data

Results flagged for a closer look

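In each group of 4 LT animals, the gap between the highest or lowest animal and its neighbour was compared with the whole range of the group for 39 levels and ratios, a check that by chance marks about 1 in 20 groups. It marked 1 of them. The level of ATP7A, the copper pump that loads lysyl oxidases, was 9.40 TPM in LT replicate 4, against a median of 8.25 TPM over the 4 LT animals, and this gap was 0.865 of the range. LT replicate 4 was still below all 3 MT animals, of which the lowest was at 11.4 TPM. None of the 9 elastic fibre genes was marked.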

How the results depend on the processing

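EFEMP1 was called from NP to MT and from NP to LT under all 21 alternatives, and the ratio of EFEMP1 to EFEMP2 differed between stages under all 12 of its own (exact permutation P = 0.00794 to 0.0321, the log2 rise from NP to MT being 1.69 to 2.21 with single animals left out). The number of the 8 elastic fibre genes called was 1 to 2 from NP to MT with single animals left out (2 without MT replicate 1, with ELN) and 0 to 1 from MT to LT (1 without NP replicate 1, FBLN1). With no minimum level 9 genes were tested, FBN2 among them, and limma called 1 from MT to LT, FBN2, and 3 from NP to LT, EFEMP1, EFEMP2 and FBN2, where 19.8% and 41.8% of all genes were called. In edgeR with no filter these numbers were 0 (2 at an unadjusted P under 0.05) and 2, EFEMP1 and FBN2, against 19.5% and 37.5%. Of all 18100 genes in this fit, 6264 had an unadjusted P under 0.05 from MT to LT. From NP to LT the number was 1 under median-ratio scaling, edgeR, DESeq2, the replicate block and edgeR with the replicate block, and 1 to 2 with single animals left out (1 without NP replicate 3). Wherever 1 was called from NP to LT, EFEMP2 was the gene lost. The exact F test passed for 1 of the 9 elastic fibre genes under median-ratio scaling and for 1 to 3 with single animals left out. No other gene was given this test, so these numbers have no share of all genes to stand against. Of the 42 pathway genes (41 without NP replicate 1), 5 to 14 were called from NP to MT with single animals left out (5 without MT replicate 3 and 14 without NP replicate 1), 10 to 19 from MT to LT and 16 to 24 from NP to LT. Over the same fits, 8.68% (without MT replicate 3) to 33.1% (without NP replicate 1) of all genes were called from NP to MT. From MT to LT the share was 15.4% to 42.1%, and from NP to LT 41.9% to 61.3%. From MT to LT, DESeq2 called 20 and a fit of only the 2 stages 20, where 36.1% and 38.8% of all genes were called against 29.4% in the test used, and from NP to LT edgeR with the replicate block called 13, where 39.1% were called against 53.1%. The causes were not tested.

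Small changes that passed no test turned their sign. With median-ratio scaling, the log2 change was 0.038 for FBLN1 and 0.071 for FBLN5 (NP to MT), 0.087 for EMILIN1 (MT to LT), 0.17 for MFAP4 and 0.078 for LOX (NP to LT). For FBLN5, EMILIN1, MFAP4 and LOX in the same contrasts, edgeR gave 0.057, 0.069, 0.15 and 0.085, DESeq2 gave 0.061, 0.069, 0.16 and 0.087, and edgeR with no filter gave 0.082, 0.10, 0.22 and 0.15. In edgeR with the replicate block the values were 0.049 for FBLN5, 0.067 for EMILIN1, 0.17 for MFAP4 and 0.032 for ELN (NP to LT). With single animals left out, the ranges that crossed 0 were -0.000455 to 0.53 for ELN from MT to LT, -0.72 to 0.31 for FBLN1 from NP to MT and -0.10 to 0.93 from NP to LT, -0.14 to 0.19 for FBLN2 from NP to LT, -0.33 to 0.087 for FBLN5 from NP to MT and -0.081 to 0.22 from NP to LT, -0.20 to 0.038 for EMILIN1 from MT to LT, and -0.31 to 0.0054 for MFAP4 from NP to LT.

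The replicate numbers shared by the stages did not pair the animals. The correlation of deviations was 0.25, 0.16 and 0.08 between NP and MT, -0.15, -0.02 and 0.07 between MT and LT, and -0.29, 0.15 and -0.17 between NP and LT, and 2 of 9 animals correlated best with their own number. Over all genes, the replicate block called 1577 genes from NP to MT, 1693 from MT to LT and 5448 from NP to LT, against 2342, 3723 and 6718 without it. A fit of only the 2 stages called 1113 from NP to MT, and with single animals left out between 1099 and 4202 were called from NP to MT and between 1944 and 5354 from MT to LT. The split of all called genes moved with the scaling, from 793 higher and 1549 lower (NP to MT), 851 and 2872 (MT to LT) and 1417 and 5301 (NP to LT) in TPM to 1378 and 904, 1848 and 1868, and 3330 and 2955 with median-ratio scaling. With 3 or 4 animals per stage, a change with an interval that spans 0 may still be present, and FBN2 in LT rests on 36 to 162 reads per animal.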

Other observations

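From NP to LT, the relatives of the microfibril and fibulin proteins were mostly lower. Of 14 tested, limma called 10 lower and 0 higher, where 41.9% of all genes were lower and 11.2% higher, and the median log2 fold change was -0.96, where that of all genes was -0.28. In edgeR 10 were lower and 2 higher, where 25.8% of all genes were lower and 23.6% higher, with medians of -0.72 and -0.01. The 6 endothelial markers with a row were all called lower in the same contrast in both tools and summed to 106 to 155 TPM in NP and to 45.7 to 66.6 TPM in LT, and their part in these falls was not tested. Against the same shares of all genes, the crosslinking genes had 1 of 10 called higher and 4 lower in limma, and 1 higher and 1 lower in edgeR. The elastases and their inhibitors had 2 of 11 called higher and 2 lower in limma, and 2 higher and 1 lower in edgeR.

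FBN3, the third fibrillin, was picked out after its values were seen. It was measured at 0.238, 1.09 and 1.10 TPM in NP, at 0.298, 0.669 and 0.498 TPM in MT, and at 0.263, 0.246, 0.111 and 0.235 TPM in LT. Every LT animal lay below every MT animal, by a small margin between LT replicate 1 and MT replicate 1, and NP replicate 1 was within the LT range. The reads behind these values were 24 to 176 per animal, the gene was below the minimum of 3 TPM in all stages, and it was tested with no minimum. From MT to LT it did not pass (log2 change -0.29, adjusted P = 0.294 in limma, and -0.99, adjusted P = 0.17 in edgeR), and from NP to LT it was called lower in both (-0.54, adjusted P = 0.0389, and -1.51, adjusted P = 0.0292). As for FBN2, the lowest stage mean of FBN3 was that of LT, at 0.214 ± 0.0696 TPM (SD, n = 4).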
